A study of Vaccinium virgatum with 9 samples.

Results

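The timing of a potassium sulfate application was compared in rabbiteye blueberry fruit: 3 RNA sequencing libraries from plants fertilized at the young fruit stage were set against 3 from plants fertilized at flowering. These 6 of the 9 libraries of the study were chosen by their titles alone. All plants were 7-year-old potted rabbiteye blueberries (Vaccinium virgatum, labelled Menditoo × Tifblue), grown 1 to a pot. The flowering and young fruit groups each received 10 g of fertilizer per plant, and the remaining 3 libraries came from plants given water. Fruit from the upper layer was picked 90 days after flowering in every group, and each replicate pooled 12 to 18 fruits. The interval between fertilizing and picking therefore differed between the timings, and its part cannot be told apart from that of the stage. Potassium and sulfate were given together and cannot be told apart either. Whether the replicates of a group were separate plants is not stated, so a p-value sets a difference against the variation among these libraries, some of which may be technical.

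Potassium is the main inorganic cation of plant cells. It sets osmotic pressure, activates many enzymes and takes part in loading sugars into the phloem that feeds the fruit. Flowering precedes fruit set, and the young fruit stage lies in the early growth of the berry, before the anthocyanin pigments that colour the ripe skin build up. The title of the series names these pigments under potassium as its subject.

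The table held counts for 38665 genes, and 25728 of them had enough counts to be tested. It gives identifiers without names or functions, so genes of the pigment, potassium, sulfate or sugar pathways could not be picked out, and the fruit label could not be checked against marker genes. Identifiers beginning with Vadar (28300) are called Vadar genes and the other 10365 non-Vadar loci. The totals of the 6 potassium libraries ran from 15923402 to 16812796 counts. In bulk fruit RNA, fewer cells of a type and less RNA per cell cannot be told apart.

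The 2 timings gave separate transcriptomes, nearer to each other than to water over the genes tested. Levels are given as CPM, counts relative to a common library total after scaling by TMM factors. Between a flowering and a young fruit library, the root mean square difference over all tested genes was 0.61 to 0.64 on the log2 CPM scale, in 9 of 9 pairs more than within either group. Within flowering it was 0.48 to 0.49, within young fruit also 0.48 to 0.49, and from either potassium group to water 1.01 to 1.06. The choice of tested genes used the water libraries too, and 23953 genes had enough counts on the potassium libraries alone. Genes tested only because of their water counts add to the distances to water, which were not taken without them. Along the first principal component of the 6 libraries, which carried 43.9% of their variance, flowering stood at -40.8 to -38.2 and young fruit at 37.5 to 41.2. The second, with 15.1%, did not part the groups.

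**Figure D1:**
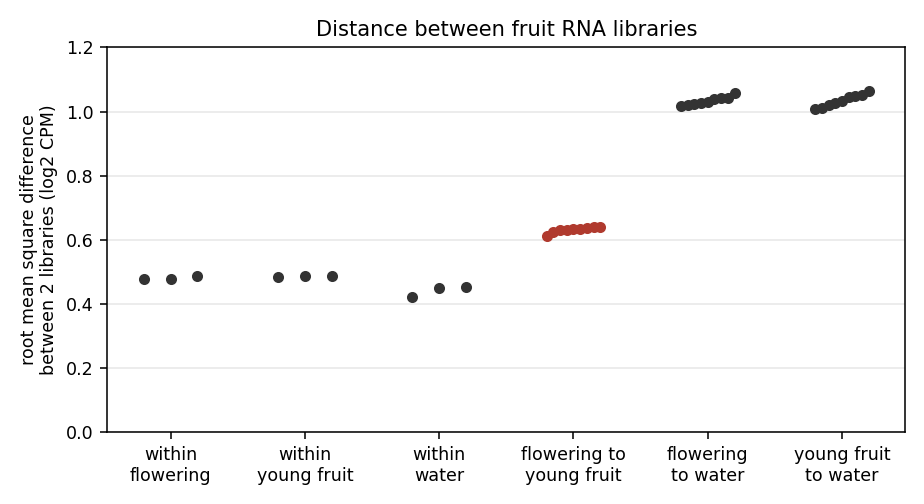
Root mean square difference in log2 CPM (y axis) for each pair of libraries (points, in rank order within a column), by kind of pair. Pairs of 1 flowering and 1 young fruit library lie at 0.61 to 0.64, above pairs within a group and below pairs with water. Genes tested only because of their water counts are included.

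Of the 25728 genes tested, 2676 (10.4%) were higher at young fruit than at flowering and 2377 (9.24%) were lower, together 19.6% (edgeR quasi-likelihood test, Benjamini-Hochberg adjusted p under 0.05). The balance rests on the scaling: under upper quartile scaling 2534 were higher and 2587 lower. Most differences were small. Among genes past the threshold, the median was 0.59 on the log2 scale for those higher and -0.43 for those lower. Regardless of sign it was 0.50 for genes past the threshold, beside 0.22 over all tested genes. The signed median over all genes was 0.00. Larger differences leaned upward: 753 genes (2.93%) were at least 2-fold higher and 388 (1.51%) at least 2-fold lower, together 4.43% of all tested. At 4-fold these numbers were 172 and 70, and at 8-fold 45 and 11. The surplus of genes at least 2-fold higher held under all 4 scalings run, and it was narrowest with upper quartile (730 against 408). In a stricter test against a 1.5-fold difference (edgeR glmTreat), 526 genes (2.04%) were higher and 195 (0.758%) lower, 2.80% of all.

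The 3 young fruit and 3 flowering libraries did not overlap in CPM for 34.1% of all tested genes, 4465 (17.4%) with young fruit above and 4319 (16.8%) with it below. An even spread over all divisions of the 6 libraries into 3 and 3 would give each division 10%, both directions together, to be set beside the 34.1%. Among genes past the edgeR threshold, 97.4% had groups apart in the direction of the call. Calls and overlap rest on the same 6 potassium libraries, so this share is no separate support. Calls depended on all 6 libraries to a similar degree. With any 1 potassium library left out, 20.1 to 26.7% of the 5053 calls were lost, and 57.4% (2902 genes, 1632 higher and 1270 lower) were kept whichever of the 9 libraries was missing. Of the calls of at least 2-fold, 67.3% were kept in the same way.

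**Figure D2:**
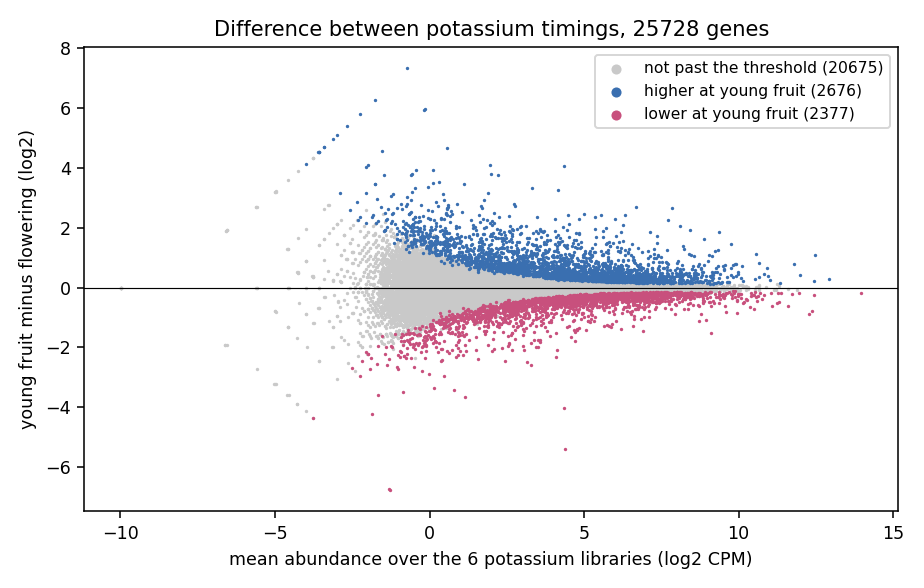
Difference between timings (young fruit minus flowering, log2, y axis) against mean level over the 6 potassium libraries (log2 CPM, x axis) for all 25728 genes tested. The 2676 genes higher (blue) and 2377 lower (pink) at young fruit lie mostly within 1 of 0 at high levels, with some exceptions, while at low levels only larger differences are coloured.

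Genes were named by a rule that asked for at least 10 CPM over the potassium libraries, groups apart, and a call kept with each of the 9 libraries left out. It left 1158 genes higher and 983 lower, and the 2 Vadar genes with the largest differences in each direction are given. What these genes encode is not given in the table.

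Vadar_g11672.v1.2 had the largest increase at young fruit under this rule. Its levels were 37.5, 39.3 and 39.1 CPM after potassium at young fruit and 2.69, 2.65 and 1.60 CPM after potassium at flowering. Water libraries had 1.39, 1.79 and 2.26 CPM, so flowering and water overlapped and young fruit stood apart. The log2 difference between timings was 4.06 ± 0.15 (SE, n = 3 per group, edgeR adjusted p = 3.02e-15), about 16.6-fold.

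Vadar_g26072.v1.2 showed another order. It had 31.0, 32.9 and 32.3 CPM at young fruit, 3.05, 4.14 and 2.75 CPM at flowering, and 19.8, 20.4 and 23.0 CPM in water. Flowering libraries were thus the low ones, and the 3 groups did not overlap. The log2 difference between timings was 3.27 ± 0.13 (edgeR adjusted p = 6.63e-15).

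Vadar_g39973.v1.2 had the largest decrease under this rule. It had 39.1, 38.6 and 37.4 CPM at flowering against 2.37, 2.19 and 2.42 CPM at young fruit. Water, at 3.34, 3.08 and 2.63 CPM, lay slightly above young fruit. The log2 difference between timings was -4.04 ± 0.13 (edgeR adjusted p = 2.04e-16).

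Vadar_g30825.v1.2 was nearly absent from water, with 2 counts over 3 libraries, and was detected at both timings. It had 27.9, 25.0 and 31.6 CPM at flowering and 4.74, 6.56 and 5.83 CPM at young fruit. The log2 difference between timings was -2.30 ± 0.15 (edgeR adjusted p = 5.99e-11), with all young fruit libraries between water and flowering.

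**Figure D3:**
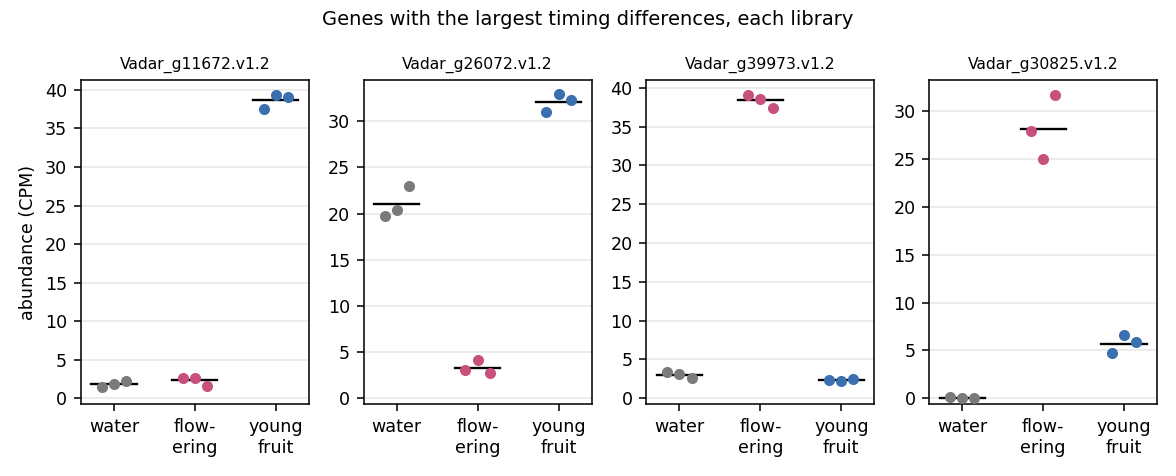
Level (CPM, y axis, linear, its own scale per panel) of 4 Vadar genes in each library; points are libraries and lines are group means (n = 3). Young fruit stands apart from flowering in all 4, and water lies near flowering in the first panel and near young fruit in the third.

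The same rule left 217 non-Vadar loci, beside 1924 Vadar genes. The one most raised went from 3.65 ± 0.80 CPM (SD, n = 3) at flowering to 18.6 ± 1.63 CPM at young fruit, with 2 counts over the water libraries (log2 difference 2.35 ± 0.17, edgeR adjusted p = 2.84e-10). The one most reduced fell from 28.3 ± 1.48 to 6.65 ± 0.93 CPM, with water at 20.8 ± 2.08 CPM (-2.09 ± 0.12, edgeR adjusted p = 3.73e-12). Another locus had a larger fitted difference, -5.39 ± 1.08 (edgeR adjusted p = 0.000761), and was left out by the rule. Its counts at flowering were 1912, 52 and 20, and without the first of these libraries the difference was -1.26 (edgeR adjusted p = 0.085).

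The 12 largest differences in each direction under the rule, which ran from 2.28 to 4.06 upward and from -1.53 to -4.04 downward, did not share 1 relation to water. Of the 12 raised at young fruit, water lay below both timings in 7, between them in 2 and above both in 3. One of the last had 67.8 CPM in water, 9.85 ± 0.66 CPM (SD, n = 3) at flowering and 53.9 ± 1.53 CPM at young fruit. A gene of the first kind, with water below both, had 47.2 CPM in water, 63.3 ± 2.57 CPM at flowering and 399 ± 17.8 CPM at young fruit. Of the 12 reduced at young fruit, water lay below both in 6, between them in 4 and above both in 2.

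Differences between timings reached the most heavily counted genes. CPM is not divided by transcript length, which the table does not give, so a rank by CPM is a rank by counts and not by molecules. Among the 10 genes with the highest mean CPM, 4 were higher and 5 lower at young fruit. Among the top 100, 24 were higher and 44 lower, beside 10.4% and 9.24% of all tested genes and 21.4% and 24.7% of those over 100 CPM, with a median size of 0.22 on the log2 scale. The top gene had 16746, 18019 and 16118 CPM at flowering and 14236, 15353 and 14781 CPM at young fruit, so the groups did not overlap (log2 difference -0.20 ± 0.05, edgeR adjusted p = 0.00914). The third gene had 3624, 3796 and 3523 CPM at flowering and 7449, 7846 and 7819 CPM at young fruit, against 2962 ± 102 CPM in water (SD, n = 3). Its log2 difference of 1.08 ± 0.04 (edgeR adjusted p = 1.37e-15) was 1 of 2 in the top 100 of at least 2-fold. The sixth was lower at young fruit, 3896 ± 234 against 6725 ± 254 CPM, and both timings lay far above water at 660 ± 26.3 CPM. The seventh was also lower, 3525 ± 132 against 6455 ± 224 CPM, and here young fruit lay below water at 5393 ± 337 CPM.

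By level, the share of genes that differed rose from 6.37% of 4273 genes below 1 CPM to 13.5% at 1 to 10, 26.3% at 10 to 100 and 46.0% of 2150 genes over 100 CPM. Precision changed with level too: the median standard error of a log2 difference was 0.54 below 1 CPM and 0.06 over 100 CPM. The smallest difference called was 1.17 in the lowest class, with none under 2-fold called there, and 0.13 in the highest. Classes used the same 6 libraries as the contrast, so a gene's own difference helped to place it. Over 100 CPM more genes were lower (530) than higher (460) at young fruit, while below 1 CPM more were higher (178 against 94). These directions held under all 4 scalings. Below 1 CPM the surplus came from Vadar genes (139 higher, 49 lower), while of the non-Vadar loci 39 were higher and 45 lower. At this level a gene could enter the test mainly through 1 group where it was high, water included, so share and surplus depend on the filter. With the 6 potassium libraries alone 203 genes differed there (127 higher, 76 lower). With a mean of at least 50 counts 16 did (15 higher, 1 lower). Over 100 CPM the order turned without flowering replicate 2, to 423 higher and 420 lower. At 10 to 100 CPM the order of 1283 higher and 1151 lower turned under upper quartile scaling (1203 and 1264). Among differences of at least 2-fold, genes higher at young fruit outnumbered those lower in every class, by 32 to 5 over 100 CPM and by 159 to 54 at 10 to 100 CPM.

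**Figure D4:**
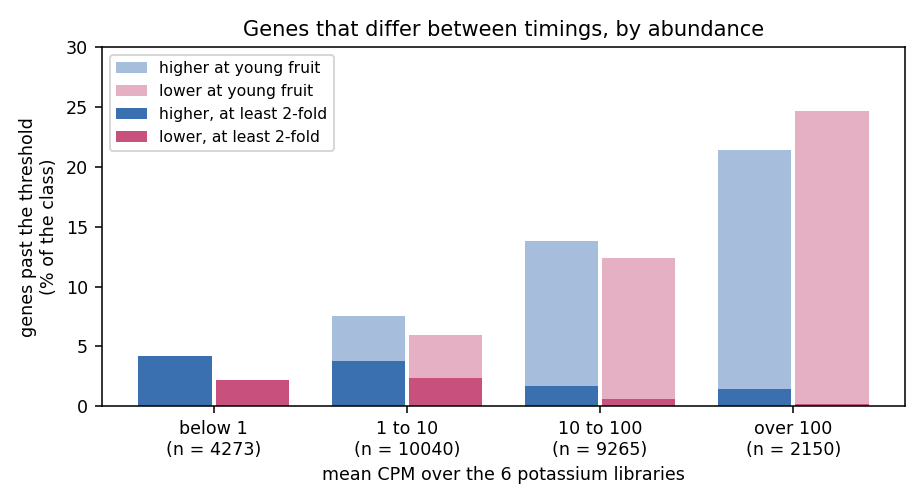
Genes past the threshold as a percent of each class (y axis) by mean CPM over the 6 potassium libraries (x axis); pale bars are all calls and dark bars those of at least 2-fold, drawn from 0. Calls rise with level to 21.4% higher and 24.7% lower over 100 CPM, where the dark bars stand at 1.49% and 0.23%, against 4.17% and 2.20% below 1 CPM.

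Vadar genes differed more often than non-Vadar loci, 21.4% of 19981 against 13.5% of 5747. Non-Vadar loci had fewer counts, with a median of 1.91 CPM against 10.7 CPM. Below 1 CPM the shares were 7.50% and 4.76%, at 1 to 10 CPM 14.2% and 11.8%, at 10 to 100 CPM 26.1% and 27.3%, and over 100 CPM 46.0% and 46.5%. Directions differed: 2327 Vadar genes were higher and 1949 lower at young fruit, against 349 and 428 non-Vadar loci, an order that held for both kinds under all 4 scalings. Among differences of at least 2-fold the order of the non-Vadar loci turned, with 159 higher and 147 lower, beside 594 and 241 Vadar genes. This contrast of directions was not tested.

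Genes that differed held a sizeable share of the counts, and in sum, as a share of raw library totals, water resembled flowering. Those higher at young fruit took 23.8, 24.2 and 24.2% of all counts at young fruit, 17.3, 17.4 and 17.3% at flowering, and 17.5, 17.7 and 17.5% in water. Those lower took 21.7, 21.7 and 21.8% at young fruit, 27.8, 27.9 and 27.7% at flowering, and 27.8, 27.7 and 27.9% in water. The difference between the timings follows from how the genes were chosen and is no test. The water libraries did not enter the contrast, but they took part in the filter, the scaling and the estimate of the spread. The shares are of raw totals, while TMM factors were 1.04 to 1.06 in water and 0.96 to 0.98 in the potassium libraries. On the CPM scale water would therefore stand lower against flowering in both sets. A few heavily counted genes weigh on these sums: without the 100 most counted genes, the genes higher at young fruit took 18.0% at young fruit, 13.0% at flowering and 14.2% in water. The genes lower then took 13.7, 17.5 and 18.3%.

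**Figure D5:**
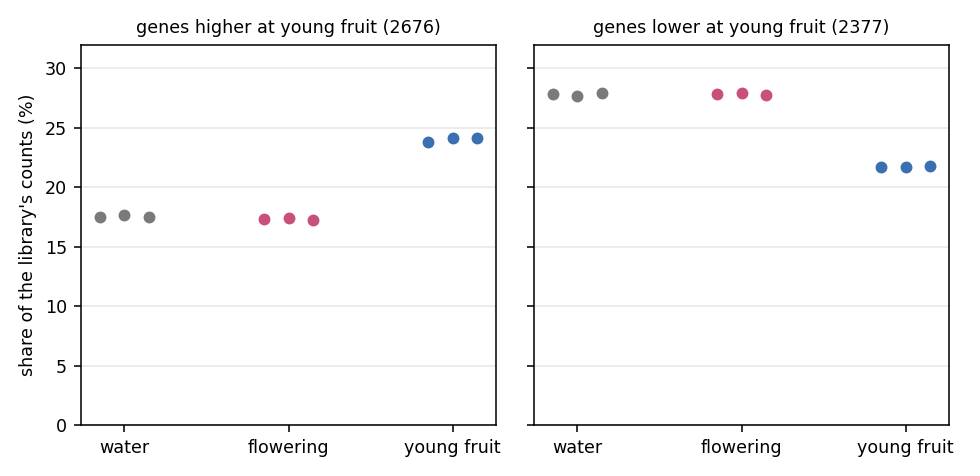
Percent of each library's counts (y axis, from 0) held by the genes higher (left) and lower (right) at young fruit; points are libraries by group. Young fruit stands apart because the genes were chosen on that contrast. As shares of raw totals, without TMM factors, the water points lie at the flowering level in both panels.

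Gene by gene, water was not uniformly nearer to flowering. The place of water is a description, since it is read from the same potassium libraries as the contrast. Among the 2676 genes higher at young fruit, mean log2 CPM of water lay below both timings in 44.6%, between them in 29.0% and above both in 26.4%. Over all tested genes these shares were 39.8, 17.4 and 42.8%, and the filter, which saw the water libraries, adds genes with high water counts to the last. Over the 23953 genes that also passed it on the potassium libraries alone they were 42.4, 17.7 and 39.9%. Among the 2377 genes lower they were 33.7, 27.7 and 38.6%. Water was nearer to young fruit than to flowering in 40.1% of the genes higher and 47.0% of those lower, beside 46.1% of all tested. The order of the first 2 shares rests on the scaling, since library size alone turned it to 46.5 and 40.2%. Among genes at least 2-fold higher water was nearer to young fruit in 51.4%, and among those at least 2-fold lower in 47.9%. Over genes that also passed the filter on the potassium libraries alone, these 2-fold shares were 46.5 and 51.8%.

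Hardly any gene was present at 1 timing and absent at the other. With 0 counts in all 3 libraries of 1 timing and at least 10 in each library of the other, 1 non-Vadar locus was found in each direction. The first had 28, 11 and 19 counts at young fruit, 0 at flowering and 11, 19 and 10 in water, and was at least 19.2-fold higher at young fruit (edgeR adjusted p = 2.15e-05). The second had 14, 13 and 11 counts at flowering, 0 at young fruit and 0, 4 and 6 in water, and was at least 12.7-fold lower (edgeR adjusted p = 0.000502). Both loci were picked by these same counts, so their p-values are no separate support. Only its flowering libraries gave the second locus 10 counts or more. The fold bounds set the empty group at 3 counts and cover counting error only. With a minimum of 20 counts no such gene remained, and without flowering replicate 2 there were 6.

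With 3 libraries against 3, no library-wide measure could reach a p under 0.05. At equal totals 33116 ± 145 genes (SD, n = 3) were detected at young fruit and 32939 ± 135 at flowering (exact two-sided permutation p = 0.2). The 10 most counted genes of a library held 6.06 ± 0.10% and 6.23 ± 0.13% of its counts (exact two-sided permutation p = 0.2). Adjusted over both measures the p-values were 0.2, and 3 libraries against 3 cannot give less than 0.1. That smallest p was reached by the share of the single top gene and of the top 100, whose groups did not overlap. The top gene held 1.43 ± 0.05% at young fruit and 1.65 ± 0.08% at flowering, and the top 100 held 19.0 ± 0.24% and 19.7 ± 0.14%.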

How the data were processed

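Counts per gene for 9 libraries were used as deposited: whole numbers, 1 column per library matched to its label, no normalization and no entry without a gene. The submitters' processing notes name HISAT2 2.1.0 and StringTie 1.3.4d without roles. The counter, build, annotation and strand handling were not given in the sources used here, and reads of near-identical gene copies may have been split or merged.

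Genes passing edgeR's filterByExpr (minimum count 10, minimum total 15) were tested with edgeR 4.0.16 in R 4.3.3, by TMM scaling and the quasi-likelihood F test. The fit held all 9 libraries with 1 term per group, and p-values were adjusted by Benjamini-Hochberg over all 25728 genes. A standard error is the log2 difference divided by the square root of F. Log2 CPM used a prior count of 2. Library totals were thinned binomially for gene detection. The fit was also run on counts simulated from the means and spread of these data, which checks the code and not the error rate on real libraries. Replicates were compared for repeated deposits (chi-square per degree of freedom 2.62 to 4.00 within the potassium groups, above the value of about one from sampling alone).

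Members, classes and the naming rule were chosen with earlier results of these data known. Gene lists for pigment, potassium, sulfate, sugar, cell wall, hormone, seed and photosynthesis genes could not be matched to identifiers, and none was tested. Alternatives covered scaling, filter, tool (DESeq2 1.42.0, limma 3.58.1), libraries fitted, replicate number as a block, threshold and each library left out.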

Additional observations from a re-analysis of the deposited data

How the results depend on the processing

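Of 104 alternative values for the counts of genes and the library measures, 93 kept within a factor of 1.5 or did not cross the threshold and 11 moved. Values of the library measures were bound to be kept, since 3 libraries against 3 or against 2 cannot give a p under 0.1. Totals of genes carry no direction: the balance of 2676 higher and 2377 lower turned to 2534 and 2587 under upper quartile scaling. A threshold of 0.01 left 3159 genes differing, of which 2710 were Vadar genes and 449 were not. The test against a 1.5-fold difference, a stricter null, left 721 genes (582 Vadar and 139 non-Vadar), 601 of at least 2-fold. A filter on a mean of 50 counts tested 16875 genes and left 558 of at least 2-fold. Genes at 0 at 1 timing numbered 9 with a minimum of 5 counts and 0 with a minimum of 20. Leaving out each library gave 3875 to 5362 genes, 984 to 1162 of at least 2-fold, 3298 to 4526 Vadar genes, 577 to 836 non-Vadar loci and 2 to 6 genes at 0. The difference in genes detected then ran from 109.5 to 253.5, and that in the share of the 10 most counted genes from -0.224 to -0.0926 percentage points. DESeq2 called 4655 genes, 4636 of them shared with edgeR. The 4 named Vadar genes kept direction and call under each other scaling, filter, tool and choice of libraries fitted; with a library left out they did so by the naming rule.

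With the replicate number as a block 5358 genes differed, against 5053 without it. Over all tested genes the numbers showed no clear pairing of the 2 timings. Deviations of same-numbered flowering and young fruit libraries correlated at -0.02, 0.03 and -0.04, and 2 of 6 libraries correlated best with their own number. This measure weighs all genes alike and leaves out water, so pairing in a part of the genes was not tested.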

Other observations

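Vadar genes whose neighbour by identifier number differed at least 2-fold more often did so too than Vadar genes in general, though most did not. What the order of the numbers stands for is not given in the table, and near-identical neighbours may share reads, so neighbours are not independent. This pattern was looked for after the list of largest differences had been seen, and it is given without a test. In 14921 cases a tested Vadar gene was followed by another whose number was at most 2 higher. Where the first was at least 2-fold higher at young fruit (448 cases), the second was too in 14.1%, beside 3.00% of all second genes. Where the first was at least 2-fold lower (157 cases), the second was too in 4.46%, beside 1.09% of all. Opposite differences of that size followed in 2 and 1 cases. With numbers that differ by exactly 1, the shares were 13.9 and 4.55%. Of the 594 Vadar genes at least 2-fold higher, 109 stood in runs of such neighbours, 37 runs of 2 genes and 9 of 3 or more, the longest of 6. Of the 241 at least 2-fold lower, 14 stood in runs, all of 2 genes. No expected number of runs was worked out. A larger set holds more runs by its size alone, so the runs do not compare the 2 directions.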
